A study of Mus musculus with 4 samples.

Results

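The clustered protocadherin genes were examined in 4 ATAC-seq libraries of P0 mouse hippocampus. The members are the 57 protein-coding genes of GENCODE release M21 (mm10) on chromosome 18 whose symbols mark them as Pcdha, Pcdhb, Pcdhga, Pcdhgb or Pcdhgc genes, out of 21938 protein-coding genes in all. There are 14 in the alpha cluster, 22 in the beta cluster and 21 in the gamma cluster, all on the plus strand between 36930184 and 37841873. GENCODE gives the symbol Pcdha11 to 2 genes, which are kept apart here as the first and the second. The 2 cKO libraries came from Kdm2bEmx1-delta-CxxC mice, in which Emx1-driven Cre removes the exon for the CxxC zinc finger of KDM2B in the dorsal telencephalic lineage, while cells of other origin keep it. The 2 Ctrl libraries came from mice labelled Kdm2bfl/+ or Kdm2bfl/fl, and the labels do not say which library had which genotype, nor how many mice or which hippocampi went into each library. Peak names in the Ctrl lists differ in a way that may mark the genotype and were not used, so the Ctrl libraries may differ in genotype. All groups carried a floxed Kdm2b allele and were collected on postnatal day 0.

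Clustered protocadherins are cell-surface adhesion proteins that differ from neuron to neuron and let the neurites of 1 cell tell themselves from those of its neighbours. In the alpha and gamma clusters each variable first exon has a promoter of its own and is spliced to constant exons shared by the whole cluster, whereas each beta gene is a single exon. Most variable promoters are known to be chosen at random and used in only a part of the neurons, with CTCF and cohesin joining a chosen promoter to a distal enhancer, while the C-type genes (Pcdhac1, Pcdhac2, Pcdhgc3, Pcdhgc4 and Pcdhgc5) are used more uniformly. In bulk tissue, a promoter open in few cells and a promoter little open in all cells cannot be told apart. Many variable exons of the clusters are rich in CpG, the sequence that the CxxC domain binds where it is not methylated. Methylation was not measured in these libraries.

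The 4 lists differed widely. Where 4 values follow one another below, they stand for Ctrl replicates 1 and 2 and then cKO replicates 1 and 2, and where 3 do, Ctrl replicate 2 had no value. The numbers of peaks were 46389, 7037, 21404 and 44535. Of the peaks of Ctrl replicate 2, 60.6% were mostly repeat sequence, against 5.37% to 14.7% for the others. Mean depth over the genome, recovered from the lists, was nevertheless highest in Ctrl replicate 2, at 3.46 fragments per base against 1.62 to 2.07. A promoter peak is a peak with its summit within 2 kb of an annotated transcription start site (TSS), and 12728, 1815, 8831 and 12254 protein-coding genes had one. Ctrl replicate 2 therefore stood apart from the other 3 libraries, and each comparison of groups is given with and without it. The samples are named neural progenitor cells in their source and cell line labels, and hippocampus in their titles and protocol. Of 10 markers of dorsal telencephalon and hippocampus, 9, 0, 6 and 10 had a promoter peak. Of 5 interneuron markers 3, 0, 1 and 2 had one, of 5 oligodendrocyte-lineage markers 2, 0, 0 and 2, of 5 endothelial markers 1, 0, 1 and 0, and none of 5 microglial markers and none of 5 markers of other tissues had one in any list.

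Accessible promoters in the clusters were few and were mainly those of C-type genes. Of the 57 members, 50 had no promoter peak in any list, 3 had one in 1 library, 1 in 2 libraries, 3 in 3 libraries and 0 in all 4. By library, the members with a peak numbered 6, 0, 3 and 5. Among the 5 C-type genes, 4, 0, 3 and 4 had a promoter peak. Among the 52 others, 2, 0, 0 and 1 did, and all 22 beta genes lacked one in each of the 4 lists. The C-type share was above that of the other members in each of the 3 libraries that had any member peak (80% against 3.85%, 60% against 0% and 80% against 1.92%), a difference given here as a description without a test.

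**Figure D1:**
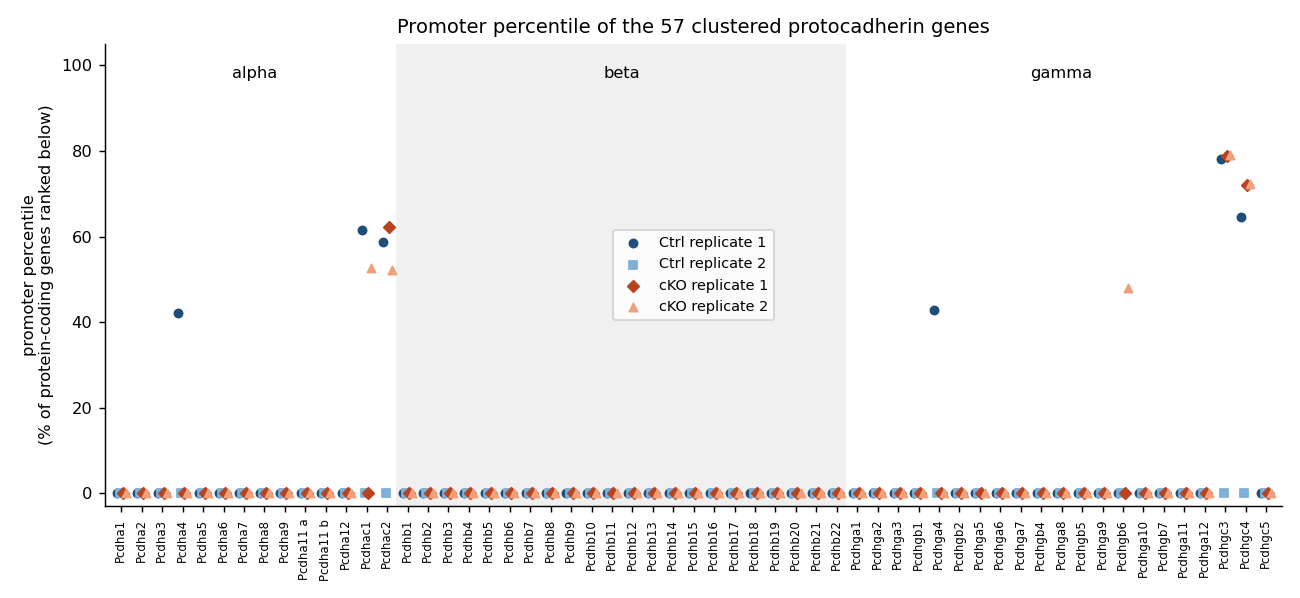
Promoter percentile (vertical axis, percent of all protein-coding genes that rank lower) of the 57 members in chromosomal order (horizontal axis), 1 point per library, with Pcdha11 a and b for the first and second gene of that name. A gene without a peak is drawn at 0. Only 7 members leave the baseline, and the highest are Pcdhgc3 (78.2 to 79.0) and Pcdhgc4 (64.7 to 72.3) in the 3 libraries other than Ctrl replicate 2.

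Since lists called one by one share no scale, each gene was placed by its promoter percentile, the percent of the 21938 protein-coding genes whose strongest promoter peak had a lower −log10 p in that library, with 0 for a gene without a peak. The lowest percentile a gene with a peak can take was 42.0, 91.7, 59.7 and 44.1. A member at 0 is therefore known only to lie below that level. Depth at a summit is given as a multiple of the mean depth of the same library.

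Pcdhgc3, a C-type isoform that is broadly used in brain, ranked highest of the members. Its gene model starts at 37806364 and its TSS in the annotation used is 37806410. It had percentiles of 78.2 and 0 in the Ctrl libraries and of 78.9 and 79.0 in the cKO libraries. Its strongest peak lay 78, 179 and 115 bp upstream of the TSS. The summit held 55, 25 and 54 fragments, or 33.9, 12.1 and 29.9 times the mean depth. By percentile both cKO libraries were thus just above Ctrl replicate 1, whereas by depth Ctrl replicate 1 was the highest of the 3. Among all peaks of each list, the strongest Pcdhgc3 peak ranked at 11.8%, 33.0% and 13.6% of the way from strongest to weakest. By that rank Ctrl replicate 1 was also the best. In Ctrl replicate 2, Pcdhgc3 is known only to lie below the percentile of 91.7, so it cannot be placed against the cKO libraries. In Ctrl replicate 1 the peak was 1236 bp wide, and in cKO replicate 2 a second, weaker peak (18 fragments) lay 759 bp downstream of the TSS. The Ctrl replicate 1 summit also lay in an exon of another gene model, BC037039, so the peak may not belong to Pcdhgc3 alone.

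Pcdhgc4, the C-type isoform known to be needed for survival of cortical interneurons, came second. It starts at 37815079 and had percentiles of 64.7 and 0 in the Ctrl and of 72.1 and 72.3 in the cKO libraries. Its summits lay 77, 128 and 93 bp from an annotated TSS and held 37, 22 and 44 fragments, which is 22.8, 10.6 and 24.4 times the mean. Both cKO libraries were above Ctrl replicate 1 by percentile. Among all peaks of each list, its peak ranked at 25.9%, 50.4% and 20.7% of the way from strongest to weakest. By that rank and by depth, 1 cKO library was above Ctrl replicate 1 and the other below, and Ctrl replicate 2 again gave no position. No CpG island (CGI) lay within 2 kb of its TSS.

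Pcdhac2, the last of the alpha first exons, starts at 37143503. The percentile was 58.7 and 0 in the Ctrl and 62.3 and 52.1 in the cKO libraries, so Ctrl replicate 1 lay between the cKO libraries. The summits lay inside its first exon, 598, 437 and 604 bp downstream of the TSS, with 25, 12 and 17 fragments (15.4, 5.78 and 9.41 times the mean).

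Pcdhac1 starts at 37090013 and had percentiles of 61.5, 0, 0 and 52.7. The summits of Ctrl replicate 1 and cKO replicate 2, 49 bp upstream and 16 bp downstream of the TSS, held 22 and 15 fragments (13.6 and 8.30 times the mean). One library of each group had the peak. Pcdhgc5, the fifth C-type gene, starts at 37819513 and had no promoter peak in any list. The nearest summits lay outside the 2 kb window, 4.2 kb upstream at the Pcdhgc4 promoter and 4.8 kb downstream, while the farthest summit inside the window of any member was at 759 bp.

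Beyond the C-type genes, 3 variable members had a promoter peak, each in 1 library. Pcdha4 had percentile 42.0 in Ctrl replicate 1, from a summit of 7 fragments (4.32 times the mean) that was also the fewest fragments of any peak in that list. A TSS of the readthrough model Gm42416 lies within 2 kb of the same summit, so the peak cannot be assigned to Pcdha4 alone. Pcdhga4 had percentile 42.9 in Ctrl replicate 1 from 9 fragments, and Pcdhgb6 had 48.0 in cKO replicate 2 from 12 fragments. These 3 summits lay 126, 76 and 35 bp downstream of the TSS. They ranked in the lower part of their lists, at 98.9%, 89.1% and 76.5% of the way from the strongest peak to the weakest. None of the 3 was kept when peaks were required to have a −log10 q of at least 5, a level at which Pcdhac1, Pcdhac2, Pcdhgc3 and Pcdhgc4 remained in Ctrl replicate 1 and cKO replicate 2. No called peak had fewer than 7, 12, 9 and 8 fragments, so an open promoter below that depth was not detectable.

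The members were then set beside other genes within each library. Of the 12632 other protein-coding genes with a CGI at a promoter, 87.3%, 13.5%, 63.5% and 85.1% had a promoter peak, against 10.5%, 0%, 5.26% and 8.77% of the members. The members were lower in 4 of 4 libraries, by 56.2 ± 29.8 percentage points on average (mean ± SD, n = 4 libraries, exact two-sided sign-flip permutation test, p = 0.13, the smallest that 4 libraries allow). In all protein-coding genes the share was 58.0%, 8.27%, 40.3% and 55.9%. Of 12 non-clustered protocadherins, which are adhesion genes with a promoter each and lie outside the clusters (Pcdh1 and Pcdh12 on the same chromosome), 10, 0, 7 and 11 had a promoter peak. Pcdh9 (89.7, 0, 84.6 and 83.2) and Pcdh10 (85.8, 0, 83.7 and 79.7) ranked above Pcdhgc3 in each library that gave them a peak, and Pcdh12 had no peak in any list.

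**Figure D2:**
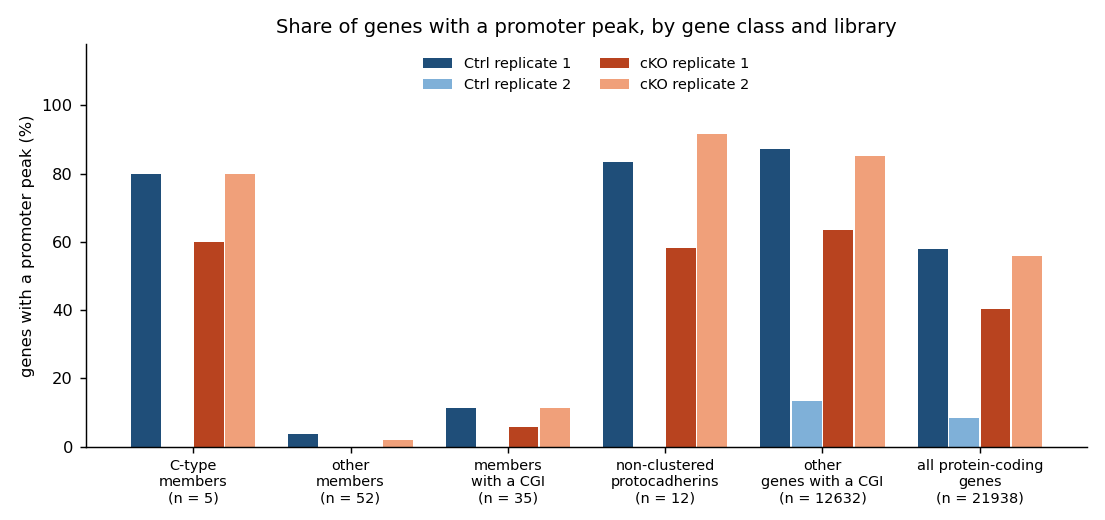
Percent of genes with a promoter peak (vertical axis) in 6 gene classes (horizontal axis, n below each), 1 bar per library and no error bars since each bar is 1 library. C-type genes reach 80%, while the other members stay at 3.85% or lower and Ctrl replicate 2 has 0 in each of the first 4 classes.

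A CGI was present within 2 kb of a TSS in 35 of the 57 members (61.4%), close to the 57.7% of all protein-coding genes. Within the members, the position of the islands differed from group to group. In the alpha cluster all 12 genes other than the C-type had at least 1 island, but only 1 of their 17 islands covered the gene's start, and 12 lay more than 1 kb downstream of it. None of the 9 islands of the beta genes, 7 of the gamma A genes and 8 of the gamma B genes covered one, and all 9 of the beta genes lay more than 1 kb downstream. Pcdhac1 and Pcdhgc3 had an island over the start, of 543 and 1486 bp, and that of Pcdhac2 (978 bp) began 17 bp away. Median GC content of the 1 kb around the TSS was 55.8% in C-type members and 44.5% in the others, against 59.7% in other CGI genes. Members with an island had a promoter peak in 11.4%, 0%, 5.71% and 11.4% of cases. Reads of 72 bases, the length left after trimming, were unique for 88.1% to 100% of the positions in each member's promoter (median 99.2%). Copies that differ by a base or more count as unique here, and their part in the missing peaks was not tested.

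Binding letters of CTCF, the factor that marks active promoters in these clusters, were counted within 500 bp of each TSS on both strands. The core AGNNGGCGC occurred in 10 of 57 members (17.5%) and in 20.9% of all protein-coding promoters of this length. It was found in 5 of 14 alpha, 3 of 22 beta and 2 of 21 gamma members, among them Pcdhac1 and Pcdhac2 and none of the 3 gamma C-type genes. A longer CTCF consensus occurred in 0 of 57 members and 1.03% of all promoters. Both were exact letter matches, so a site that differs by a letter was missed and a match need not be a bound site. CTCF binding was not tested.

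Along the clusters, the regions shared by 3 or more lists lay between the Pcdhac2 promoter and Pcdhb1, at Taf7, or from the Pcdhgc3 promoter to that of Diaph1. Among the variable exons other than the C-type, the peaks were the single-library ones of Pcdha4, Pcdhga4 and Pcdhgb6, and none lay among the beta genes. From 100 kb before the first to 100 kb after the last member (36830184 to 37941873, 1112 kb), the lists held 18, 2, 11 and 17 peaks. That is 16.2, 1.80, 9.89 and 15.3 peaks per Mb, against 17, 2.58, 7.85 and 16.3 over the genome. The 48 peaks merged into 20 regions, of which 7 were at member promoters, 2 at promoters of other genes (Taf7 and Diaph1) and 11 away from both. Held by all 4 lists was 1 region, by 3 lists 9, by 2 lists 6 and by 1 list 4.

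**Figure D3:**
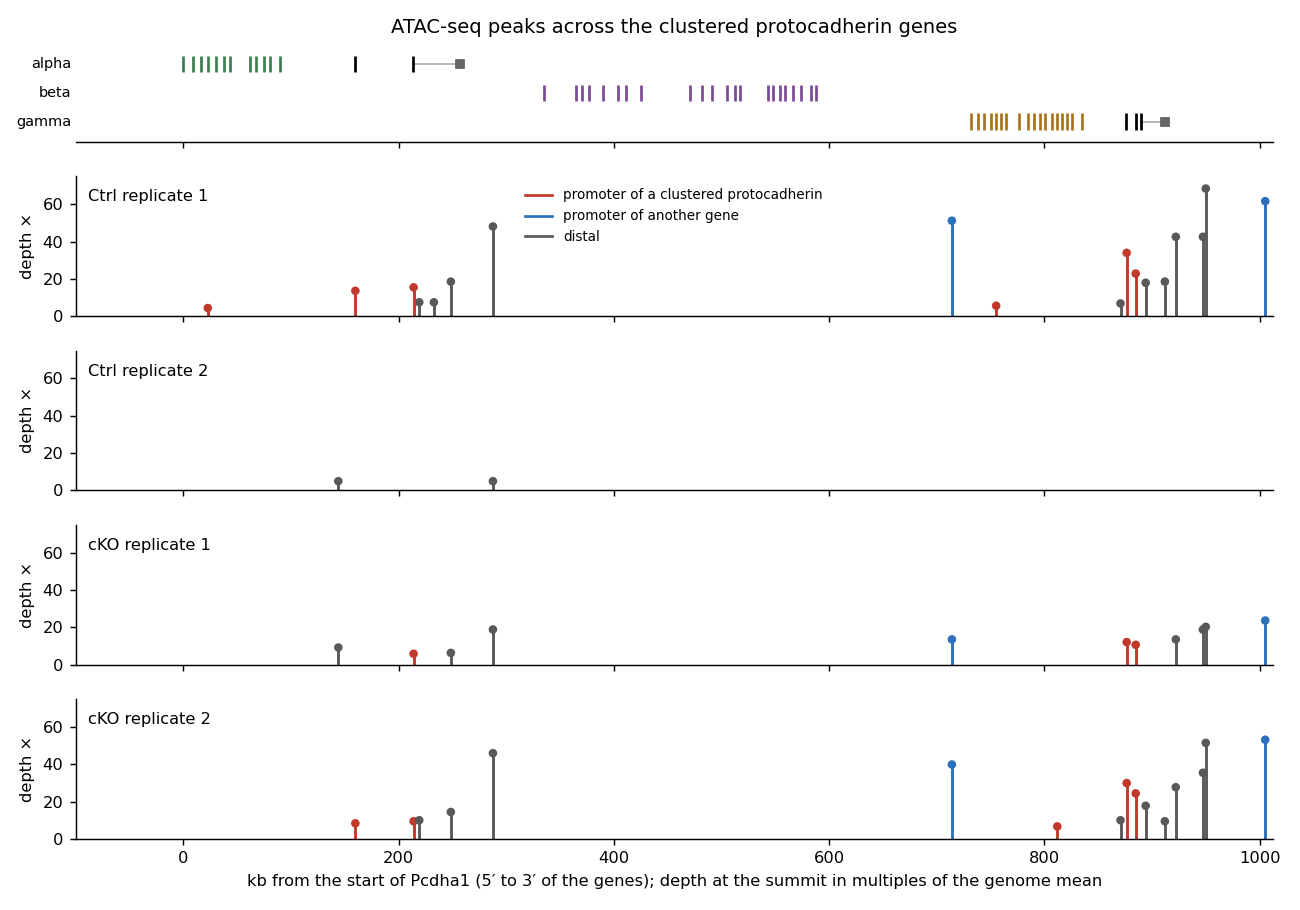
Peaks from 100 kb before to 100 kb after the clusters, by kb from the start of Pcdha1 (horizontal axis) and summit depth in multiples of the genome mean (vertical axis), 1 panel per library. The upper panel marks the start of each member, C-type genes in black, and the end of the alpha and gamma constant exons as squares. The space from the distal region upstream of Pcdhb1 to Taf7, which holds all 22 beta genes, has no peak in any panel.

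The longest stretch without a peak in any list ran 425 kb, from 37218461 to 37643940, and held the starts of all 22 beta genes and of Slc25a2, a mitochondrial carrier gene. The beta cluster itself spans 260 kb. For reference, 2002 genomic windows of this length (in steps of 50 kb) held at least 10 protein-coding gene starts, with a median of 9, 1, 5 and 9 peaks. Of these, 103 (5.14%) had no peak in any of the 4 lists, and 79 of the 103 held at least 5 olfactory or vomeronasal receptor genes. Among windows with fewer receptor genes, 1.45% were without a peak. Neighbouring windows overlap, so these shares describe the genome and are no test. The first 122 kb of the region and the 120 kb after the Pcdha4 peak were also without peaks, and together these stretches held the starts of 12 alpha genes, Pcdha4 included, whose start lies just before its peak.

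Away from member promoters, 7 regions were held by at least 3 lists. The best mean rank was that of the Diaph1 promoter (37935040 to 37935742), a formin gene 3′ of the gamma cluster, with summit depths of 61.6, 23.6 and 53.1 times the mean. Inside Diaph1, in introns, lay 3 more: 37879877 to 37880446 with 68.4, 20.2 and 51.5, 37877217 to 37877708 with 42.5, 18.8 and 35.4, and 37852086 to 37852525 with 42.5, 13.5 and 27.7. These lie 60.7, 57.9 and 32.7 kb downstream of the Pcdhgc5 TSS, and none overlapped a CGI. The Taf7 promoter (37643941 to 37644559), a subunit gene of the general transcription factor TFIID between the beta and gamma clusters, had 51.2, 13.5 and 39.9. Enhancers of the gamma and beta genes are known to lie 3′ of the gamma cluster, and which of these peaks correspond to them was not tested.

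The region at 37217131 to 37218460, between the alpha constant exons and Pcdhb1, was the single one in all 4 lists. It lies 46.7 kb upstream of Pcdhb1, in introns only of the readthrough models Gm37013, Gm37388 and Gm42416, and overlapped no CGI. Its depth was 48.1, 4.91, 18.8 and 45.9 times the mean, from 78, 17, 39 and 83 fragments. It was deeper than each member promoter in each of the 3 libraries with a member peak. The last of the 7, at 37178324 to 37179048 in an intron shared by all 14 alpha genes and 35.1 kb downstream of the Pcdhac2 TSS, had 18.5, 6.27 and 14.4, with no peak in Ctrl replicate 2. The other peak of Ctrl replicate 2, 16 kb upstream of Pcdhac1, was shared only with cKO replicate 1, and 96.6% of its bases were repeat sequence.

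**Figure D4:**
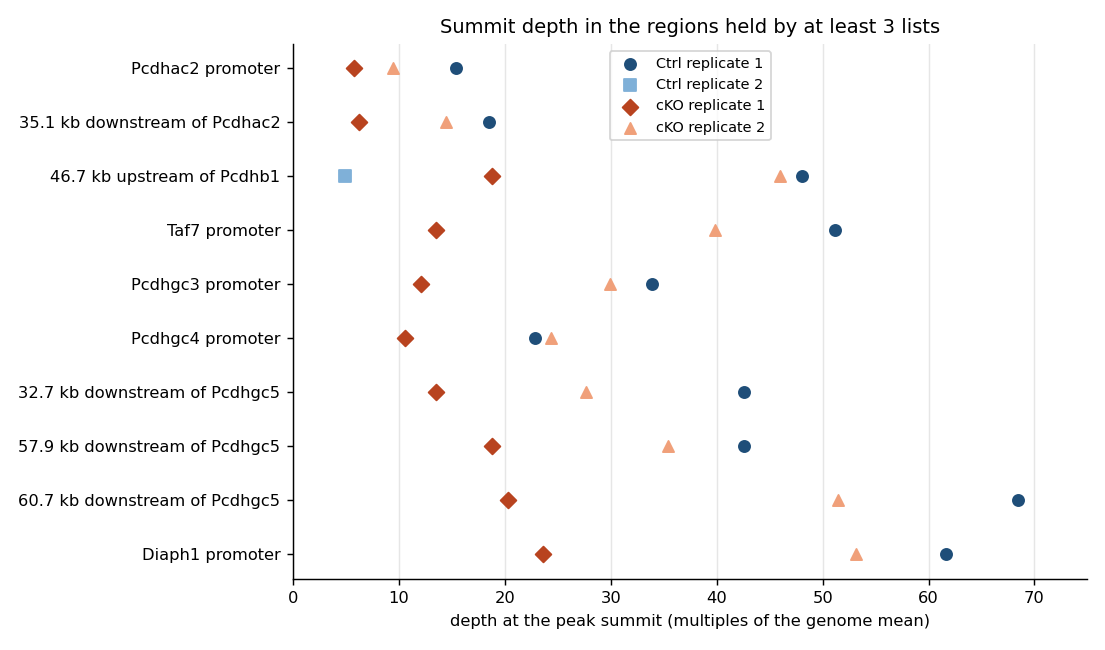
Depth at the peak summit in multiples of the genome mean (horizontal axis) for the 10 regions held by at least 3 lists (vertical axis, in chromosomal order), 1 point per library. In each region cKO replicate 1 is below Ctrl replicate 1 and cKO replicate 2, and Ctrl replicate 2 appears once, at 4.91.

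The groups were compared for a difference in accessibility between cKO and Ctrl. At the clusters, the members with a promoter peak numbered 4 ± 1.41 in cKO and 3 ± 4.24 in Ctrl (mean ± SD, n = 2 each), so that they differed by 1, less than the SD of either group (exact two-sided permutation test, p = 1). Without Ctrl replicate 2 the difference was -2. The mean promoter percentile over all members was 4.54 ± 1.13 in cKO and 3.05 ± 4.32 in Ctrl, a difference of 1.49 (exact permutation p = 1), and -1.57 without Ctrl replicate 2, with genes that lack a peak counted as 0. The region held 14 ± 4.24 peaks in cKO and 10 ± 11.3 in Ctrl (exact permutation p = 1), and the difference of 4 became -4 without Ctrl replicate 2. Peaks covered 7.91 ± 2.56 kb in cKO and 6.66 ± 7.33 kb in Ctrl (exact permutation p = 1), a difference of 1.24 kb, or -3.94 kb without Ctrl replicate 2. The adjusted p (Benjamini-Hochberg over these 4) was 1 for each. With 2 libraries a group no p below 0.33 can be reached, so the design cannot show a difference of this kind at 0.05. Whether replicates came from separate litters is not given in the sources used here.

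With genes that lack a peak put at 0, Pcdhgc3 and Pcdhgc4 were higher in each cKO than in each Ctrl library, 2 of the 7 members with a peak, and 0 of 7 were lower. Of the 13196 genes that had a promoter peak somewhere, 20.5% were higher in the same sense and 2.8% lower, so 2 of 7 members is near the background. This count depends on the 0 of Ctrl replicate 2, whose lowest percentile with a peak (91.7) is above each member's value in cKO. When a gene without a peak was allowed to lie anywhere up to the lowest percentile with a peak in its list, 0 of 7 members were higher and 0 lower, beside 2.59% and 2.80% of the genes. With the same allowance and without Ctrl replicate 2, Pcdhgc3 and Pcdhgc4 were higher and Pcdhac1 lower, beside 23.8% and 24% of genes, and Pcdha4, Pcdhga4 and Pcdhgb6 could not be placed.

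Depth was also read within each library against the Diaph1 promoter, as a rough allowance for different overall signal. Diaph1 had the best mean rank in these same lists, and whether it is equal between the groups was not tested. The Taf7 promoter stood at 83%, 57.1% and 75% of it. The summit of Pcdhgc3 reached 55% of that of Diaph1 in Ctrl replicate 1, with a 95% interval of 38.8 to 77.2%. In the cKO libraries it reached 51.0% (30.2 to 84.2%) and 56.3% (39.5 to 79.3%). The summit of Pcdhgc4 reached 37.0% (24.7 to 54.5%), 44.9% (25.9 to 75.7%) and 45.8% (31.3 to 66.1%). The C-type genes of the alpha cluster reached less than Pcdhgc3 and Pcdhgc4 in each library that gave them a peak. Pcdhac2 reached 25% (15.4 to 39.1%), 24.5% (11.9 to 46.7%) and 17.7% (9.91 to 29.9%). Pcdhac1 reached 22% (13.2 to 35.2%) in Ctrl replicate 1 and 15.6% (8.42 to 27.1%) in cKO replicate 2. The intervals are exact binomial ones on the 2 fragment counts and cover counting error only. For each of these genes the intervals overlapped broadly, so a difference was not detectable at this depth. Over the regions that pairs of lists shared, depth had Spearman's rho of 0.92 between Ctrl replicate 1 and cKO replicate 1 (10 regions), 0.91 between Ctrl replicate 1 and cKO replicate 2 (15 regions) and 0.95 between the cKO libraries (10 regions). These are correlations across regions of the same tissue and protocol, given as a description.

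Genes that act on or with the clusters were counted from fixed lists. Of 15 regulators of the clusters, 15, 4, 12 and 14 had a promoter peak. Zfp143, a zinc-finger protein found at promoters and loop anchors, ranked at 98.5, 98.9, 99.4 and 99.4, and Ctcf, the architectural factor, at 83.9, 0, 89.2 and 76.7. Dnmt3b, a DNA methyltransferase that methylates variable promoters in the embryo, was lower at 49.2, 0, 0 and 45.5. Kdm2b itself was at 68.5, 0, 74.9 and 70.7, which is above each C-type alpha gene and does not test the deletion. Of 10 signalling partners 9, 2, 9 and 9 had a peak, among them Fyn, a Src-family kinase (94.3, 93.3, 93.0 and 92.2), and Wasf1, a WAVE complex subunit (91.8, 92.8, 98.0 and 91.0). The 6 other protein-coding genes that start in the region included Diaph1 (94.9, 0, 96.2 and 95.2) and Taf7 (94.1, 0, 85.4 and 92.3). Both neighbours thus ranked above each member in each library that gave them a peak, and Slc25a2 had no peak in any list.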

How the data were processed

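ATAC-seq was performed on 50000 nuclei per reaction with 13 PCR cycles and 150 bp paired reads, for 2 cKO and 2 Ctrl hippocampal samples. The authors' pipeline ran Cutadapt and Bowtie2 (mm10), discarded blacklisted, mitochondrial and duplicate reads (SAMtools, Picard), shifted the ends for Tn5 and called peaks with MACS2 (2.2.7.1 per the submitters' processing notes) on each library without a control. The deposited lists give a score, a fold enrichment ratio, −log10 p and −log10 q, and the summit offset for each peak, so depth had to be recovered. Library sizes and reads outside peaks were not used here.

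Peaks were joined to GENCODE M21 basic TSSs in Python 3.11.15 (numpy 2.4.6, pandas 2.3.3, scipy 1.17.1). The members, lists and comparisons were chosen with earlier results of these data known. Peaks were ranked by −log10 p in each list. Fragments at a summit and the local background were solved from fold and p under the Poisson model of MACS2, which gave whole fragments within 0.01 for 99.99% to 100% of the peaks solved. On simulated peaks 100% were recovered. The genome mean of a library was read as its lowest local background. CGIs were stretches of at least 200 bp with GC of at least 50% and observed over expected CpG of at least 0.6 in the mm10 reference (16234 islands). Peaks with at least 50% soft-masked bases counted as repeat sequence. Groups were compared with exact two-sided permutation tests over the 6 assignments of 4 libraries, adjusted by Benjamini-Hochberg over 4 tests. Values in every library are given for members with a promoter peak, for the C-type genes and, away from member promoters, for regions in at least 3 lists. Alternatives changed the promoter definition, list size, q threshold, repeat filter, rank, flank, island definition, block and library set.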

Additional observations from a re-analysis of the deposited data

How the results depend on the processing

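The count of members with a promoter peak, and which members these were, did not depend on whether promoters were taken as 1 kb, as any overlap or from the gene's 5′ end. The difference from CGI genes was negative under each alternative run, from -70.5 to -49.4 when 1 library was left out, and it was -31.1 with equal-size lists of 7037 peaks and -59.5 with stricter islands. In equal-size lists Pcdhgc3 alone kept a promoter peak, in Ctrl replicate 1 and cKO replicate 2, and the net number of members ranked higher in cKO fell from 2 to 0. The same setting took the difference in members from 1 to 0, in mean percentile from 1.49 to 0.0071, in peaks from 4 to 2 and in covered length from 1.24 to 0.639 kb, and leaving out the flanks gave 2 peaks and 0.586 kb. A −log10 q of at least 5 gave 2.02 kb. Giving genes without a peak their mid-rank in place of 0 turned the difference in mean percentile to -6.62 and the net number to 0. Letting them lie anywhere up to the lowest percentile with a peak, an alternative added after the data were seen, also gave a net number of 0.

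Leaving out 1 library in turn gave differences of -2 to 4 members, -1.57 to 4.54 percentile points, -4 to 12 peaks and -3.94 to 6.42 kb, and net numbers of -1 to 3. The negative values came without Ctrl replicate 2, and the covered length was also negative, at -0.57 kb, without cKO replicate 2. Without Ctrl replicate 1, 3 of 5 members with a peak were higher and 0 lower, beside 59.6% and 8.86% of genes. Without Ctrl replicate 2, 2 of 7 were higher and 3 lower, beside 23.8% and 36.6%. Without cKO replicate 1, 3 of 7 were higher and 0 lower, beside 44.9% and 5.15%. Without cKO replicate 2, 3 of 6 were higher and 0 lower, beside 34.5% and 5.24%. Samples with the same number share only a number: over 13196 genes their deviations correlated at 0.053. With the replicate block the differences were 1, 1.49, 4 and 1.24 kb, as without it (exact within-pair permutation p = 1), and the net number was 3. With crossed numbers, added after the data were seen, it was 2. No share over all genes is set beside these net numbers, so they are not read as a result. No other result changed direction, and with 2 libraries a group none could pass 0.05. Depth limits what is called: 7 to 12 fragments were the fewest at any peak.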

Other observations

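Further regions of the clusters were held by 1 or 2 lists. At 37824041 to 37824592, 4.8 kb downstream of the Pcdhgc5 TSS and in an exon of the transcript model Gm38182, depth was 17.9 times the mean in Ctrl replicate 1 and 17.7 in cKO replicate 2. At the end of the gamma constant exons, 37841583 to 37842737, it was 18.5 and 9.41 in the same libraries. A region 5.9 kb downstream of the Pcdhac2 TSS (37149117 to 37149550) had 7.40 and 9.96, and one 5.4 kb upstream of the Pcdhgc3 TSS (37800795 to 37801071) had 6.78 and 9.96. A region 19.5 kb downstream of the Pcdhac2 TSS was in the list of Ctrl replicate 1 only, at 7.40.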
